A study of Mus musculus with 19 samples.

Results

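Cholesterol and fatty acid synthesis was followed here through 27 genes of mouse dorsal root ganglia, which hold the cell bodies of sensory neurons. The genes were found by symbol in the deposited table of counts and FPKM, where each of the 27 had 1 entry among 36682 genes. They cover the mevalonate steps (7 genes), the squalene and sterol steps (11 genes), sterol sensing and transport (5 genes) and fatty acid synthesis (4 genes).

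RNA was sequenced from pooled ganglia L3 to L5 of 19 male mice. In mice with knee surgery the ganglia were taken on the side of the surgery. All mice were homozygous for MaFIA (macrophage Fas-induced apoptosis), a transgene that lets the drug AP20187 dimerise a Fas death domain in cells that express it. They formed 4 groups. DMM, surgical destabilization of the medial meniscus, is a model of knee osteoarthritis, and 5 mice with DMM received AP20187 and 5 received vehicle. Of the naive mice 4 received AP20187 and 5 vehicle. AP20187 or vehicle was injected into the peritoneum daily for 5 days, 8 weeks after surgery or in naive mice matched for age. The age was not given, the naive mice were not described as having had sham surgery, and no group lacked the transgene. The transgene is driven by the Csf1r promoter, which is active in macrophages and also in other myeloid cells, so AP20187 does not act on macrophages alone. The comparison of AP20187 with vehicle therefore asks what treatment in MaFIA mice did to the ganglia. The comparison of DMM with naive mice asks how ganglia differ after the whole operation. Without a described sham group, the joint destabilization and the rest of the operation cannot be told apart.

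Cholesterol is made from acetyl-CoA through mevalonate, isoprenoid pyrophosphates, squalene and lanosterol. Most genes of the route are targets of SREBP transcription factors: when sterol is low, the escort protein SCAP carries the SREBP precursor to the Golgi for cleavage, and when sterol is high, INSIG proteins hold both back in the endoplasmic reticulum. In peripheral nerve and ganglia, Schwann cells and satellite glia make much of the lipid for myelin and membrane, and neurons also make sterol. Fatty acid synthase makes saturated fatty acid from malonyl-CoA, and stearoyl-CoA desaturases put the double bond into it.

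Promoters are shown for a pair of sterol enzymes, Hmgcs1 because it was the only one of the matched genes whose window held the searched sterol regulatory element, and Tm7sf2 because it had the smallest adjusted p of the 27 genes; the latter choice was made after its values were seen. Both are RefSeq promoter windows of GRCm38.p6, from 250 bases before to 50 bases after the start, written 5′ to 3′ on the strand of the gene. Capitals mark the sterol regulatory element TCACNCCAC and the NF-Y box CCAAT, which reads ATTGG where it lies on the opposite strand.
Hmgcs1 (chr13:119690101-119690400, plus strand): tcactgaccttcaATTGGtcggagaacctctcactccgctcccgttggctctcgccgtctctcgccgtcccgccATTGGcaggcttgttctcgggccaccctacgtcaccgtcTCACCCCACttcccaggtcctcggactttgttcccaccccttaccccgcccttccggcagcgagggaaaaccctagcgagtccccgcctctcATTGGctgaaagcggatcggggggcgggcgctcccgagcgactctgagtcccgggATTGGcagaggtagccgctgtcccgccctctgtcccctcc
Tm7sf2 (chr19:6067801-6068100, minus strand): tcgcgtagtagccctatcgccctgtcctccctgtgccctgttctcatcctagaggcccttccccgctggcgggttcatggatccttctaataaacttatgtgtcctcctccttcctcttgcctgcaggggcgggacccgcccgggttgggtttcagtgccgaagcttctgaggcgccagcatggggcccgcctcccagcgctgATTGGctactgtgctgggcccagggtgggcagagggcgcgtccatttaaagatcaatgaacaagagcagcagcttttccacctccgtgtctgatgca
In the Hmgcs1 window the element TCACCCCAC began 137 bases before the start. CCAAT lay there on the opposite strand at 237, 176 and 45 bases before the start and at 10 bases after it. In the Tm7sf2 window 1 CCAAT lay 47 bases before the start, also on the opposite strand.

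RefSeq windows were found for 21 of the 27 genes, 27 windows in all because some genes had several starts. TCACNCCAC, on either strand, was in 1 of these 27 windows (3.70%) and in 1.24% of all 32851 windows of the same length. CCAAT was in 19 of the 27 (70.4%) against 37.4% of all windows, and the GC box GGGCGG, to which Sp1 binds, in 21 of 27 (77.8%) against 35.7%. Each motif was counted on its own, and in the printed windows no match overlapped a match of another motif. A match describes letters in a window, not a binding site.

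In naive mice with vehicle, FPKM (counts per gene length and library size, as deposited) put Scd2 first of the 27 genes. Scd2, the desaturase most expressed in nervous tissue, had 282 ± 40.7 FPKM (SD, n = 5), rank 92 among all genes of the table. Hmgcs1, which makes HMG-CoA, had 169.8 ± 24.9 FPKM, and Scd1, the desaturase best known from liver and fat, had 162 ± 25.2 FPKM. Below them came Fdft1, squalene synthase, at 76.5 ± 15.4 FPKM and Acat2, which joins acetyl-CoA units at the entry to the route, at 71.0 ± 10.2 FPKM. The lowest levels were those of Acaca, acetyl-CoA carboxylase, at 7.27 ± 1.59 FPKM and Lss, lanosterol synthase, at 4.59 ± 0.334 FPKM. The regulators Srebf2, Srebf1 and Scap stood at 28.7 ± 6.26, 9.19 ± 0.432 and 8.77 ± 1.32 FPKM. Highest and lowest mean differed by 61.5-fold, but neighbours in the order were rarely apart: of 26 neighbouring pairs, only Scd2 and Hmgcs1, Scd1 and Fdft1, and Acaca and Lss had ranges over the 5 mice that did not overlap.

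**Figure D1:**
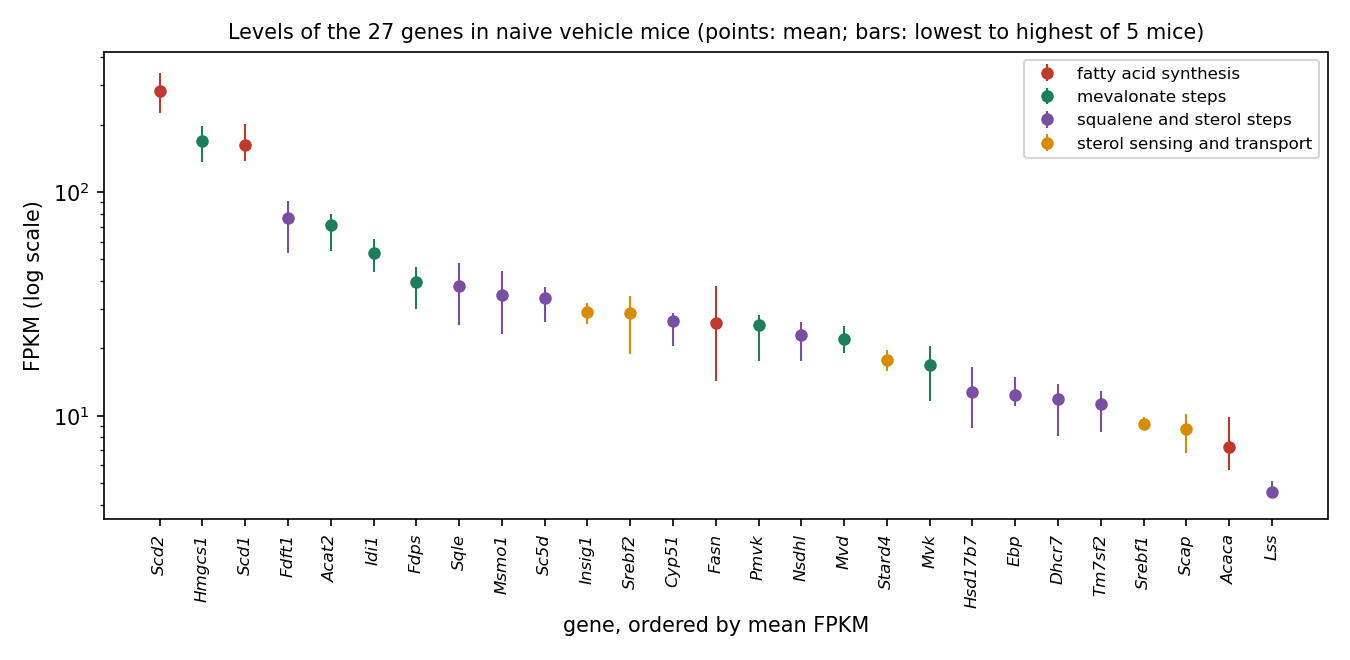
Deposited FPKM (log axis) of the 27 genes in naive mice with vehicle, ordered by mean and coloured by role; points are means and bars run from the lowest to the highest of 5 mice. Scd2 stands at the top and Lss at the bottom, and 3 of 26 neighbouring pairs have bars that do not overlap.

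Several libraries stood apart and bear on the values below. Each library is 1 sample of the labels, numbered within its group, and is taken here as 1 mouse. Numbers 1, 3, 4 and 5 occur in both naive groups. Library totals ran from 60984830 to 74691396 counts. As a description, the median over the 27 genes of the log2 ratio to the naive vehicle mean was taken in each library. It was -1.55, -0.92, -0.90, -0.49 and -0.96 in DMM with AP20187 (mice 58 to 62), 0.16, 0.19, -0.09, -0.05 and -0.71 in DMM with vehicle (mice 32, 33, 34, 63 and 64), -0.66, -1.28, -0.49 and -0.39 in naive with AP20187 (mice 1, 3, 4 and 5), and 0.11, 0.10, -0.18, -0.22 and 0.04 in naive with vehicle (mice 1 to 5). Mouse 64 of DMM with vehicle was the lowest of its group for 25 of 27 genes, and for 24 of 27 it lay at or below the highest DMM mouse with AP20187. The other 4 mice of that group were above every DMM mouse with AP20187 for 19 of 27 genes. Mouse 58 was the lowest of DMM with AP20187 for 23 genes, mouse 61 the highest for 25, and mouse 3 the lowest of naive with AP20187 for 26. The label numbers of DMM with vehicle fall into 2 runs, 32 to 34 and 63 to 64, and what the numbers stand for was not given. Groups are named by treatment and not by depletion. Of 12 macrophage markers none fell with AP20187, 1 rose in DMM mice, near the 11.3% of all genes that rose there, and 4 rose in naive mice, where 8.61% of all genes rose. Their median log2 fold change was 1.06 in DMM mice, with 2 below 0, and 1.38 in naive mice, with 1 below 0. In each comparison 8 of the 12 had an unadjusted p under 0.05 (edgeR).

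**Figure D2:**
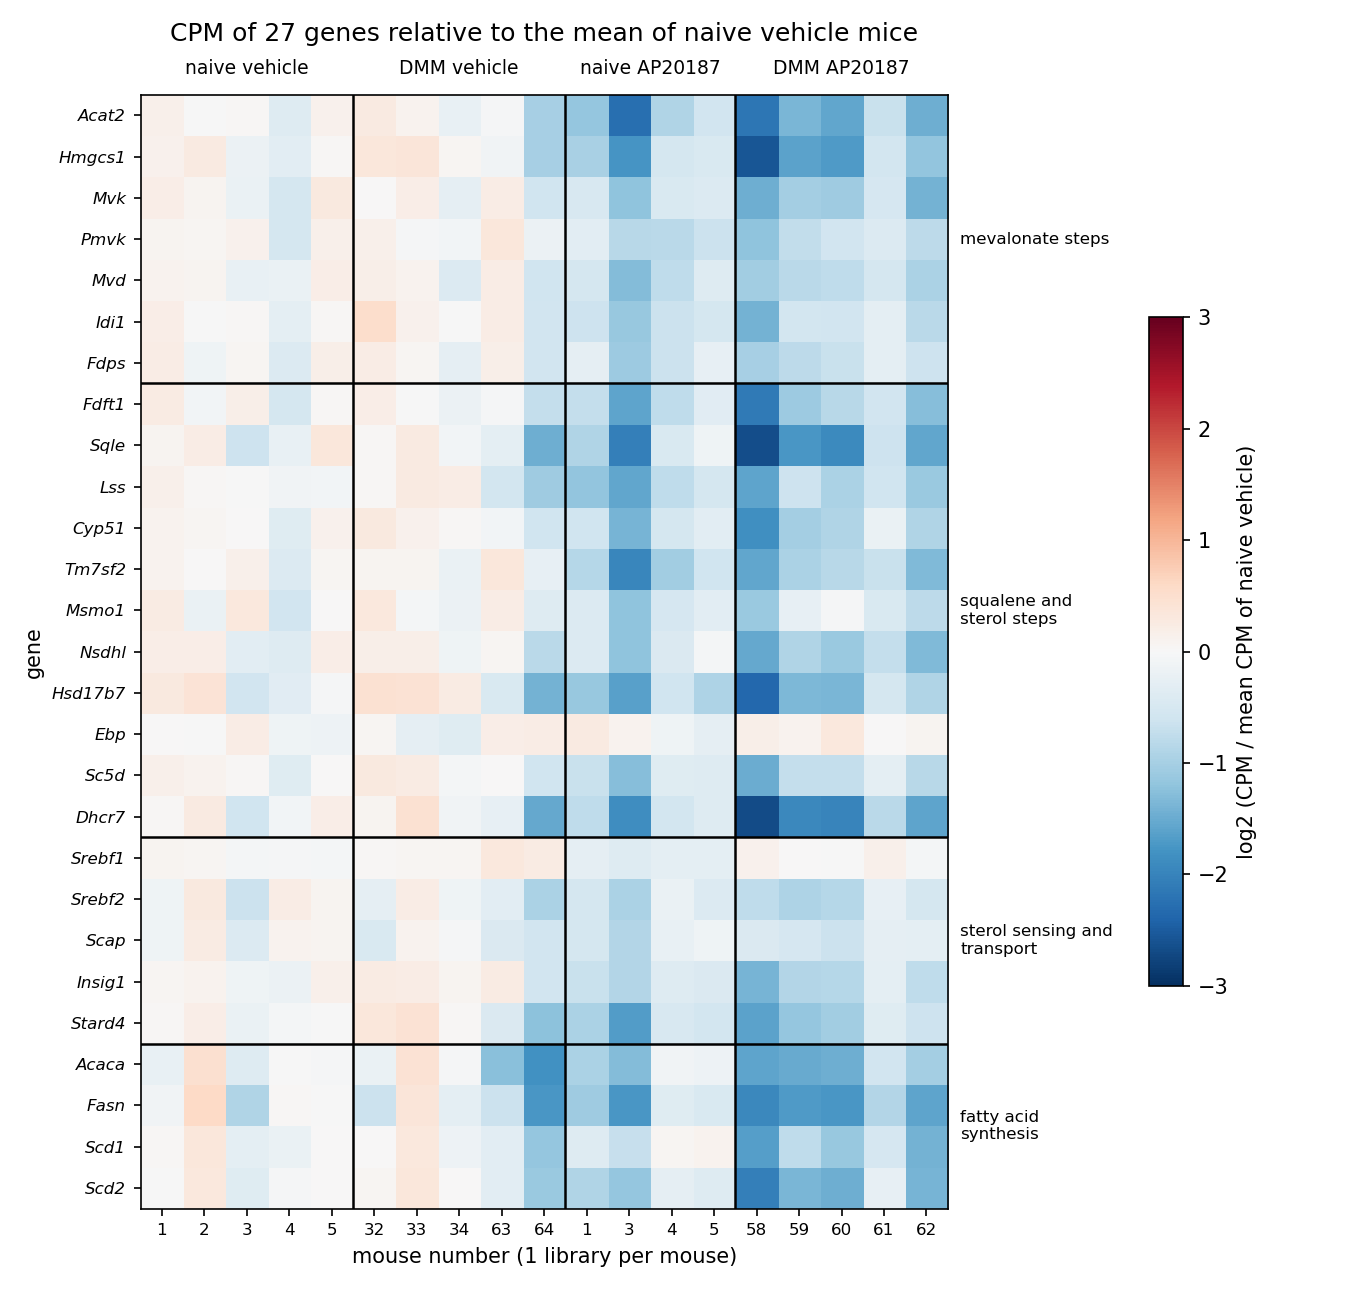
Heat map of the log2 ratio of CPM (counts scaled to the TMM library size) to the mean of naive vehicle mice, for 27 genes (rows, by role) in 19 libraries (columns, 1 per mouse). Most rows are below the naive vehicle mean in mice with AP20187 and in DMM vehicle mouse 64, whose median was -0.71, while Ebp and Srebf1 vary little.

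With AP20187, cholesterol and fatty acid synthesis genes were lower in DMM ganglia than with vehicle. Of the 27 genes, 21 fell and none rose (edgeR quasi-likelihood F test, adjusted p under 0.05 over 22778 genes), against 12.4% of all tested genes that fell and 11.3% that rose. The median log2 fold change was -0.85 for the 27 genes and -0.10 for all tested genes. Log2 value is short here for log2 fold change, values after ± are the SE for log2 fold changes and the SD over mice for CPM and FPKM, and CPM are counts scaled to the TMM library size. The 21 comprised 7 of 7 mevalonate genes, 9 of 11 squalene and sterol genes, 2 of 5 sensing and transport genes and 3 of 4 fatty acid genes. Groups did not overlap for 2 of 27 genes, Pmvk and Tm7sf2, while 4.18% of all genes were lower and 8.71% higher without overlap. In the same comparison 10 of 15 sensory neuron markers fell and 10 of 12 granulocyte precursor and neutrophil markers rose, at levels given with the marker lists, and their part in the result was not tested. Without DMM vehicle mouse 64 the count was 22, with 34% of all genes called in either direction against 23.8% with all mice, and without mouse 61 it was 22, with 28.1%. Without mouse 58 it was 14, with 14.2% of all genes, and without DMM vehicle mouse 32 it was 13, with 15.1%, the lowest count with any 1 of the 10 mice left out. In each of these fits 26 of 27 values stayed below 0. Against DMM vehicle mice 63 and 64 alone, 1 gene fell, Tm7sf2, with a median of -0.49 over the 27 genes. In that fit 4.73% of all genes were called in either direction, so 1 of 27 is near that share. Against mice 32 to 34 alone 23 fell, with 36.3% of all genes called.

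Among the mevalonate genes, Hmgcs1 (ENSMUSG00000093930, chr13:120151915-120169796 in GRCm39) was at 136, 264, 246, 550.1 and 353 CPM with AP20187 and 1015, 1026, 837, 748 and 401 CPM with vehicle, in the order of mice given above. Its log2 fold change was -1.38 ± 0.33 (adjusted p = 0.00742). All mice with AP20187 were below 4 of the 5 with vehicle, and mouse 61 was above vehicle mouse 64. Acat2 (ENSMUSG00000023832, chr17:13161777-13179634), at the first step, had 41.4, 71.8, 62.8, 117 and 66.8 CPM with AP20187 and 223, 200.4, 157, 179 and 92.3 CPM with vehicle. It fell to 42.2% of the vehicle level, a log2 value of -1.25 ± 0.30 (adjusted p = 0.00729), and only mouse 61 overlapped with vehicle mouse 64. The kinases Mvk and Pmvk act in succession on mevalonate. Mvk had 16.9, 22.8, 22.1, 32.7 and 17.4 CPM with AP20187 and 46.2, 52.9, 38.5, 53.9 and 30.7 CPM with vehicle. Its log2 fold change was -0.99 ± 0.22 (adjusted p = 0.00493), with overlap only between mice 61 and 64. Pmvk had 19.3, 26.4, 30.01, 33.4 and 25.9 CPM with AP20187 and 49.7, 43.5, 41.7, 56.1 and 39.5 CPM with vehicle, gave a log2 value of -0.77 ± 0.17 (adjusted p = 0.00461), and its highest mouse with AP20187 was below its lowest with vehicle.

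Mvd, which decarboxylates the product to isopentenyl pyrophosphate, had 20.4, 23.9, 24.7, 28.9 and 21.6 CPM with AP20187 and 47.3, 45.0, 31.7, 48.7 and 27.6 CPM with vehicle. It fell with a log2 value of -0.75 ± 0.19 (adjusted p = 0.00988), and mouse 61 again exceeded vehicle mouse 64. Idi1, the isomerase of that isoprenoid unit, had 71.6, 132, 129, 156 and 110.0 CPM with AP20187 and 275, 211, 191, 225 and 128 CPM with vehicle. Here 3 mice with AP20187 were above vehicle mouse 64, and the log2 fold change was -0.78 ± 0.21 (adjusted p = 0.0135). Fdps, which builds farnesyl pyrophosphate, had the smallest change of the 7, -0.62 ± 0.20 (adjusted p = 0.0305), from means of 108 ± 19.7 against 165 ± 36.1 CPM (SD, n = 5 each).

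In the squalene and sterol steps the smallest adjusted p belonged to Tm7sf2 (ENSMUSG00000024799, chr19:6112851-6117880), a sterol reductase late in the route. It was at 17.4, 26.3, 28.6, 32.2 and 20.5 CPM with AP20187 and 54.2, 53.8, 44.3, 64.6 and 42.8 CPM with vehicle. The log2 fold change was -1.05 ± 0.22 (adjusted p = 0.00341), 48.2% of the vehicle level, and the groups did not overlap. Dhcr7 (ENSMUSG00000058454, chr7:143376882-143402147), the reductase that yields cholesterol, had the lowest ratio of the 27 genes. It was at 11.1, 18.6, 17.9, 40.5 and 23.8 CPM with AP20187 and 75.6, 97.7, 65.9, 59.4 and 24.6 CPM with vehicle, or 34.6% of vehicle, with a log2 value of -1.53 ± 0.36 (adjusted p = 0.00650). Mouse 61 was above vehicle mouse 64, and the other 4 mice with AP20187 were below all vehicle mice. Nsdhl, a sterol dehydrogenase that helps remove methyl groups, had 23.2, 35.8, 30.7, 40.7 and 26.5 CPM with AP20187 and 75.6, 75.4, 60.7, 70.1 and 38.0 CPM with vehicle. Its log2 fold change was -1.03 ± 0.23 (adjusted p = 0.00491), with an overlap of mice 61 and 64.

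Fdft1, which commits farnesyl pyrophosphate to squalene, had 73.6, 151, 182, 217 and 133 CPM with AP20187 and 369.8, 319, 284, 314 and 196 CPM with vehicle and gave a log2 value of -0.97 ± 0.27 (adjusted p = 0.0150). Sc5d, a sterol desaturase, had 59.8, 102, 102, 136 and 94.6 CPM with AP20187 and 207, 200.2, 162, 168 and 110.3 CPM with vehicle and gave a log2 value of -0.78 ± 0.22 (adjusted p = 0.0174). In both genes the overlap came from vehicle mouse 64. The epoxidase Sqle, the cyclase Lss and the demethylase Cyp51 lie between squalene and the late sterols. Their log2 fold changes were -1.35 (adjusted p = 0.0182), -0.80 (adjusted p = 0.0280) and -0.86 (adjusted p = 0.0203), and all 3 fell. The ketoreductase Hsd17b7 also fell, at a log2 value of -1.18 (adjusted p = 0.0213), with means of 29.5 ± 12.5 against 67.0 ± 29.2 CPM. Of the 2 genes of this role that did not pass, the methyl sterol oxidase Msmo1 had a log2 value of -0.48 (adjusted p = 0.129) and the sterol isomerase Ebp 0.15 (adjusted p = 0.490). Ebp was the only one of the 27 genes above 0, at means of 32.2 ± 2.67 against 29.02 ± 5.31 CPM.

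The genes of the SREBP factors and of their escort did not pass the test in DMM mice. Srebf2 (ENSMUSG00000022463, chr15:82031382-82089580), whose factor acts mainly on sterol genes, had 125, 112, 116, 179 and 146 CPM with AP20187 and 175, 248, 193, 170.1 and 109 CPM with vehicle, and its log2 fold change was -0.40 ± 0.22 (adjusted p = 0.194). Srebf1 (ENSMUSG00000020538, chr11:60089915-60113407), whose factors act on fatty acid genes more, had 58.5, 53.6, 52.4, 59.2 and 50.6 CPM with AP20187 and 54.0, 55.5, 54.8, 66.6 and 63.0 CPM with vehicle, with groups that overlapped, and its log2 value was -0.10 ± 0.10 (adjusted p = 0.516). Scap, the escort, had 49.4, 47.5, 42.7, 55.8 and 54.4 CPM with AP20187 and 48.5, 72.3, 65.9, 49.9 and 45.1 CPM with vehicle, and its log2 value was -0.17 ± 0.17 (adjusted p = 0.506). Other fits called some of them: limma voom with sample weights gave -0.64 for Srebf2 (adjusted p = 0.00479) and -0.36 for Scap (adjusted p = 0.0481), and edgeR against vehicle mice 32 to 34 alone gave -0.60 for Srebf2 (adjusted p = 0.0445). Whether these 3 differ in response from the enzymes was not tested. Insig1 (ENSMUSG00000045294, chr5:28276361-28283660), the retention protein and itself an SREBP target, had 34.7, 49.8, 50.5, 74.9 and 54.4 CPM with AP20187 and 109.7, 107, 96.9, 109 and 61.5 CPM with vehicle. It fell with a log2 value of -0.87 ± 0.19 (adjusted p = 0.00428), and only mouse 61 exceeded vehicle mouse 64. Stard4, which carries cholesterol between membranes, fell with a log2 value of -0.83 (adjusted p = 0.0435), from means of 54.9 ± 18.1 against 97.7 ± 38.7 CPM.

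In fatty acid synthesis, Fasn, fatty acid synthase, had 76.2, 89.2, 87.5, 158 and 97.0 CPM with AP20187 and 188, 378, 239.7, 185 and 86.4 CPM with vehicle. Its log2 fold change was -1.09 ± 0.35 (adjusted p = 0.0319), and mouse 61 stood above the other 4 with AP20187. Scd2 (ENSMUSG00000025203, chr19:44282113-44295303) had 379.7, 611, 571, 1336 and 607 CPM with AP20187 and 1656, 2003, 1606, 1273 and 734 CPM with vehicle and gave a log2 value of -1.05 ± 0.31 (adjusted p = 0.0207). Mouse 61 was above vehicle mice 63 and 64, and the other 4 mice were below every vehicle mouse. Scd1 had 259.5, 479, 373, 579 and 303 CPM with AP20187 and 819, 1020.2, 736, 652 and 363 CPM with vehicle and gave a log2 value of -0.85 ± 0.26 (adjusted p = 0.0269), with 3 mice with AP20187 above vehicle mouse 64. Scd1 and Scd2 are close paralogs, and how reads common to both were assigned was not given. Acaca, which supplies malonyl-CoA, had 42.7, 45.0, 46.0, 85.3 and 62.5 CPM with AP20187 and 112, 172, 125, 53.5 and 36.2 CPM with vehicle and did not pass the test, with a log2 value of -0.82 ± 0.35 (adjusted p = 0.0947). Of its vehicle mice, 63 was inside the range of the AP20187 group and 64 below it.

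**Figure D3:**
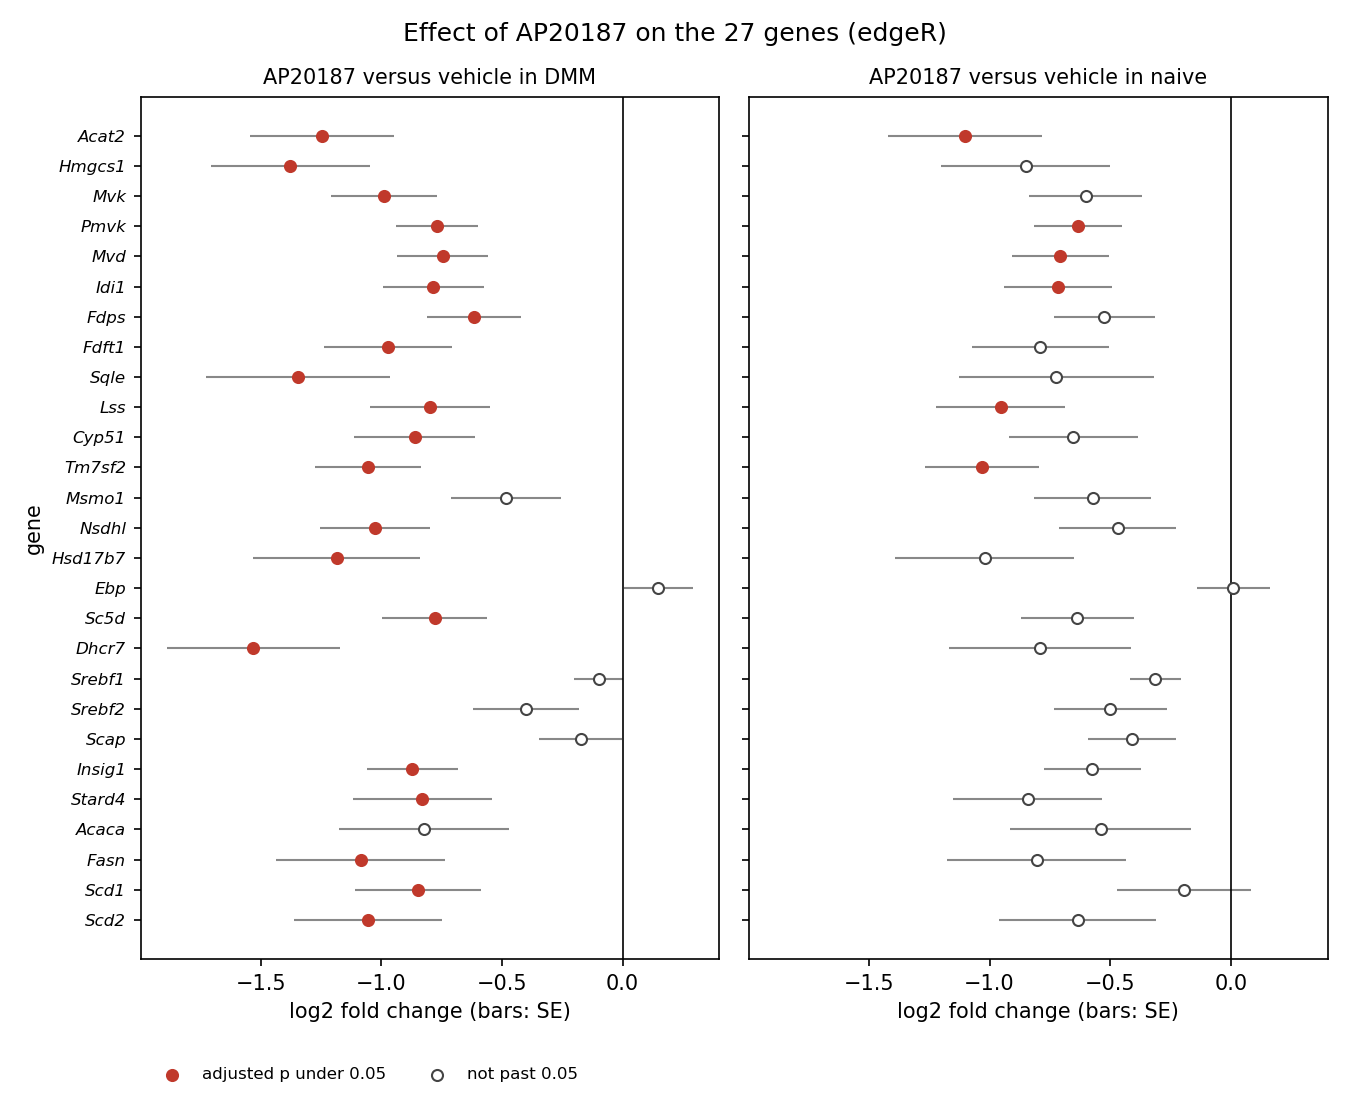
Log2 fold change of AP20187 against vehicle (points; bars are the SE) for the 27 genes in DMM mice (left) and naive mice (right); filled points have an adjusted p under 0.05. In DMM mice 21 points are filled and in naive mice 6, and in each panel 26 of 27 lie below 0.

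Values in naive mice lay in the same direction, with fewer genes past the threshold. Here 6 of the 27 genes fell with AP20187 (Acat2, Pmvk, Mvd, Idi1, Lss and Tm7sf2) and none rose, against 2.57% of all tested genes that fell and 8.61% that rose. The median log2 fold change was -0.64 for the 27 genes and -0.07 for all tested genes, and 26 of 27 values were below 0. By role, 4 of 7 mevalonate genes and 2 of 11 squalene and sterol genes fell, and none of 5 sensing or 4 fatty acid genes did. Groups did not overlap for 11 of 27 genes, all lower with AP20187, while 6.15% of all genes were lower and 9.39% higher without overlap. In the same comparison all 15 sensory neuron markers were below 0, with a median of -0.77, 6 had an unadjusted p under 0.05, 4 had groups without overlap and 0 passed the adjusted threshold. Of 12 granulocyte precursor and neutrophil markers 11 rose. The levels are given with the marker lists, and their part in the result was not tested. The count of 6 depended on the tool: DESeq2 gave 12, limma voom with sample weights 16 and limma on log2(FPKM + 1) 19, with 19.1%, 19.9% and 19.3% of all genes called in either direction against 11.2% here. Leaving out 1 mouse gave 1 to 7, with 1 when naive AP20187 mouse 3 or naive vehicle mouse 1, 2 or 5 was left out, 2 without naive AP20187 mouse 1 and 3 without naive AP20187 mouse 4. The fits with 2 and 3 of 27 called 5.07% and 10.9% of all genes in either direction, near the members' share. The 4 fits with 1 of 27 called 4.24% to 6.91% in either direction, and 1 of 27 is below that share. In these fits every called gene of the 27 was lower. The share of all genes that fell in them was not taken, so the counts are not set against it.

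Of the genes that fell in naive mice, Tm7sf2 had 28.1, 13.2, 25.0 and 33.6 CPM with AP20187 and 55.1, 51.8, 56.7, 38.3 and 53.5 CPM with vehicle, in the order of mice given above. The log2 fold change was -1.03 ± 0.24 (adjusted p = 0.00985), the groups did not overlap, and it was the one gene past the threshold whichever mouse was left out. Acat2 had 83.3, 38.5, 98.9 and 123 CPM with AP20187 and 207, 184, 189, 141 and 202 CPM with vehicle and gave a log2 value of -1.10 ± 0.32 (adjusted p = 0.0325). All 4 mice with AP20187 were below all 5 with vehicle, which also held for Mvd and Idi1. Mvd had 29.1, 16.9, 24.8 and 32.0 CPM with AP20187 and 45.2, 44.3, 35.9, 36.3 and 48.0 CPM with vehicle, and its log2 value was -0.71 ± 0.20 (adjusted p = 0.0305). Idi1 had 124, 86.8, 123 and 134 CPM with AP20187 and 219.7, 189.6, 196, 156 and 198 CPM with vehicle, and its log2 value was -0.72 ± 0.22 (adjusted p = 0.0459). Pmvk had 35.7, 25.0, 25.2 and 28.6 CPM with AP20187 and 47.2, 46.4, 48.2, 30.7 and 49.6 CPM with vehicle, and its log2 value was -0.63 ± 0.18 (adjusted p = 0.0314). There the overlap came from vehicle mouse 4, well below the other 4 of its group. Lss fell with a log2 value of -0.95 (adjusted p = 0.0288), at means of 26.2 ± 8.00 against 50.7 ± 3.54 CPM (SD, n = 4 and 5), without overlap.

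The other named enzymes did not pass in naive mice. Hmgcs1 had 405, 233, 554 and 583 CPM with AP20187 and 880.3, 959, 705, 641 and 813 CPM with vehicle, a log2 value of -0.85 ± 0.35 (adjusted p = 0.118) and no overlap. Mvk had 33.0, 20.1, 33.9 and 34.8 CPM with AP20187 and 52.9, 49.3, 40.1, 32.0 and 56.7 CPM with vehicle, and its log2 value was -0.60 ± 0.23 (adjusted p = 0.1002), with mouse 3 well below the other 3 with AP20187. Fdft1 had 196, 108, 189 and 253 CPM with AP20187 and 382, 306, 365, 225 and 332 CPM with vehicle, and its log2 value was -0.79 ± 0.28 (adjusted p = 0.0776). In these genes mouse 3 was the lowest of all naive mice. Nsdhl had 50.4, 28.97, 49.4 and 64.4 CPM with AP20187 and 76.5, 76.7, 53.5, 51.0 and 76.5 CPM with vehicle, and its log2 value was -0.47 ± 0.24 (adjusted p = 0.206). Sc5d had 105, 68.8, 130.0 and 128 CPM with AP20187 and 186, 181, 170.2, 131 and 169 CPM with vehicle, and its log2 value was -0.64 ± 0.23 (adjusted p = 0.0836), without overlap. Dhcr7, the gene with the lowest ratio in DMM mice, had 42.1, 19.6, 48.2 and 53.9 CPM with AP20187 and 73.1, 85.4, 47.1, 67.5 and 81.4 CPM with vehicle, and its log2 value was -0.79 ± 0.38 (adjusted p = 0.172). Its highest mice with AP20187 were above vehicle mouse 3. Of the remaining enzymes, log2 values were as follows: Sqle had -0.72 (adjusted p = 0.240), Hsd17b7 -1.02 (adjusted p = 0.0819), Cyp51 -0.65 (adjusted p = 0.116), Fdps -0.52 (adjusted p = 0.108), Msmo1 -0.57 (adjusted p = 0.129) and Ebp 0.01 (adjusted p = 0.974). The value of Ebp in naive mice was below 0 without TMM scaling, at -0.07.

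Among the regulators, Srebf1 had 44.0, 40.6, 43.2 and 43.1 CPM with AP20187 and 56.5, 55.5, 51.3, 51.5 and 50.6 CPM with vehicle in naive mice. Every mouse with AP20187 was below every mouse with vehicle, at 80.5% of the vehicle level, but its log2 value of -0.31 ± 0.11 (adjusted p = 0.0659) did not pass. Srebf2 had 146, 109, 183 and 160.4 CPM with AP20187 and 192, 259, 136, 246 and 225 CPM with vehicle, and its log2 value was -0.50 ± 0.23 (adjusted p = 0.165). Scap had 46.6, 36.6, 57.1 and 61.7 CPM with AP20187 and 61.5, 80.1, 50.6, 72.1 and 70.8 CPM with vehicle, and its log2 value was -0.41 ± 0.18 (adjusted p = 0.149). In both, vehicle mouse 3 was the lowest of its group and inside the range of mice with AP20187. Other fits called these 3 regulators lower in naive mice. For Srebf1 DESeq2 gave -0.32 (adjusted p = 0.00191), and limma on log2(FPKM + 1) gave -0.44 for Srebf1 (adjusted p = 0.0140), -0.64 for Srebf2 (adjusted p = 0.0439) and -0.52 for Scap (adjusted p = 0.0348). Insig1 had 58.0, 50.3, 70.1 and 68.2 CPM with AP20187 and 95.1, 98.3, 83.5, 80.9 and 101 CPM with vehicle, without overlap, and its log2 value was -0.58 ± 0.20 (adjusted p = 0.0708). The carrier Stard4 likewise had no overlap, at a log2 value of -0.84 (adjusted p = 0.0834).

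The fatty acid genes overlapped between treatments in naive mice. Scd1 had 622, 504, 849.6 and 875 CPM with AP20187 and 835, 1038, 669, 712 and 824 CPM with vehicle, and its log2 value was -0.20 ± 0.28 (adjusted p = 0.658), so that the mean stood at 87.3% of vehicle. Scd2 had 852, 703, 1321 and 1202 CPM with AP20187 and 1578, 1967, 1232, 1548 and 1589.5 CPM with vehicle, and its log2 value was -0.63 ± 0.33 (adjusted p = 0.204). Fasn had 139, 87.3, 227 and 214 CPM with AP20187 and 273, 441, 156, 298 and 290.2 CPM with vehicle, and its log2 value was -0.80 ± 0.37 (adjusted p = 0.160). In all 3, naive AP20187 mice 4 and 5 lay inside or close to the vehicle range and mouse 3 was the lowest. Acaca had 66.1, 51.4, 118 and 116 CPM with AP20187 and 110.1, 179, 97.7, 126 and 125 CPM with vehicle, and its log2 value was -0.54 ± 0.37 (adjusted p = 0.345).

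The difference between the effects in DMM and naive mice was tested as an interaction, and no gene of the 27 passed, nor had any an unadjusted p under 0.05. Of all tested genes 0.114% passed, 0.0483% with a positive and 0.0659% with a negative difference. The smallest adjusted p was 0.758, for Scd1, with a log2 difference of -0.65, and Dhcr7 had -0.74 ± 0.51 (adjusted p = 0.829). The counts of 21 and 6 genes that fell therefore do not show that the effect differed between DMM and naive mice.

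Surgery without AP20187 was read from DMM against naive mice with vehicle. None of the 27 genes passed, none had an unadjusted p under 0.05, and of all tested genes 0% passed and 377 had an unadjusted p under 0.05 (edgeR). DESeq2 called 0 of the 27 as well. The median log2 fold change was -0.06. Srebf1, with the smallest unadjusted p of the 27, had a log2 value of 0.15 ± 0.10 (adjusted p = 1.00), and Scd2, the most abundant, -0.12 ± 0.30 (adjusted p = 1.00). The value of Scd2 was above 0 against mice 32 to 34 alone, without DMM vehicle mouse 64 and with limma voom. Tm7sf2 was at 51.9 ± 8.80 against 51.1 ± 7.39 CPM in DMM and naive mice. With only mice 63 and 64 kept for DMM with vehicle, Acaca passed, at -1.51 (adjusted p = 0.0485). In that fit 2.21% of all genes were called in either direction, so 1 of 27 is near that share.

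With AP20187, DMM against naive mice also gave no gene of the 27 past the threshold, where 0.702% of all genes passed (0.263% higher and 0.439% lower), and 4 had an unadjusted p under 0.05. Srebf1 was higher in every DMM mouse than in any naive mouse, 54.9 ± 3.79 against 42.7 ± 1.49 CPM, with a log2 value of 0.36 ± 0.11 (adjusted p = 0.112). It was the only one of the 27 without overlap, while 3.46% of all genes were higher and 2.44% lower without overlap. So 1 of 27 is near the share of all genes that were higher without overlap. Scd1 had -0.84 ± 0.27 (adjusted p = 0.147), Nsdhl -0.62 ± 0.24 (adjusted p = 0.205) and Dhcr7 -0.87 ± 0.37 (adjusted p = 0.245). Other tools called some of these. DESeq2 and limma on log2(FPKM + 1) each called 1 of the 27, Srebf1, which was higher. They called 4.87% and 5.78% of all genes in either direction, and 1 of 27 is below that share. The share of all genes that rose in these fits was not taken. With limma voom and sample weights 7 were called, Srebf1 higher and Dhcr7, Fasn, Nsdhl, Scd1, Scd2 and Sqle lower, with 10.8% of all genes called. The 4 pairwise comparisons share groups, so they are not independent of one another.

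Genes next to the synthesis route were read from 4 further lists, to be set against the shares of all genes: 12.4% fell and 11.3% rose in DMM mice, and 2.57% fell and 8.61% rose in naive mice. For acetyl-CoA supply and fatty acid elongation, 11 of 17 genes fell in DMM mice with AP20187 and none rose, with a median of -0.69. Me1, malic enzyme, which supplies NADPH, fell, with a log2 value of -0.83 ± 0.17 (adjusted p = 0.00250) and no overlap between groups. Acss2, which makes acetyl-CoA from acetate, fell with -1.08 ± 0.24 (adjusted p = 0.00496). Fads2, a fatty acid desaturase, fell with -1.01 ± 0.22 (adjusted p = 0.00461), and Mid1ip1, an activator of acetyl-CoA carboxylase, with -0.52 ± 0.13 (adjusted p = 0.0100). In naive mice Mid1ip1 fell, -0.50 (adjusted p = 0.0295), and the elongase Elovl1 rose, 0.73 (adjusted p = 0.0194), and the other 15 did not pass. The 1 of 17 that rose is below the 8.61% of all genes that rose. The 1 of 17 that fell is a single gene, where 2.57% of all genes fell.

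In the list of sterol efflux, uptake and storage, 3 of 13 genes rose and 2 fell in DMM mice, and 4 rose and 1 fell in naive mice. The 2 of 13 that fell in DMM mice are near the share of all genes. Ch25h, which makes a hydroxycholesterol that holds SREBP back, had 6.96 ± 2.63 against 0.920 ± 0.301 CPM in DMM mice and 7.28 ± 2.47 against 1.07 ± 0.503 CPM in naive mice. It rose in both, with 2.92 ± 0.36 (adjusted p = 7.13e-05) and 2.77 ± 0.37 (adjusted p = 2.18e-04). Ch25h is also an interferon and inflammation gene of myeloid cells. Scarb1, the HDL receptor, rose by 1.42 (adjusted p = 9.52e-04) and 1.85 (adjusted p = 3.17e-04) on the log2 scale, and Soat1, which esterifies cholesterol for storage, by 1.06 (adjusted p = 0.00134) and 0.89 (adjusted p = 0.00958). In naive mice Nr1h3, the LXR alpha receptor, rose by 1.69 (adjusted p = 0.0161). Cyp46a1, the cholesterol hydroxylase of neurons, fell in both, -1.05 (adjusted p = 0.0198) and -1.04 (adjusted p = 0.0453). Vldlr, a lipoprotein receptor, fell in DMM mice, -0.60 (adjusted p = 0.0329).

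For isoprenoid use and SREBP processing, 1 of 10 genes fell in DMM mice, the farnesyltransferase subunit Fntb, -0.66 (adjusted p = 0.0101), and none passed in naive mice. This is near the share of all genes that fell. In the list of myelin sphingolipid synthesis, 0 of 7 passed in DMM mice, and in naive mice the ceramide synthase Cers2 rose, 0.53 (adjusted p = 0.0370). The median of this last list was 0.03 in DMM mice and 0.06 in naive mice.

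Marker genes of several cell types moved with the same comparison. In DMM mice, sensory neuron markers summed to 2699 to 9303 CPM after AP20187 and 7387 to 18665 CPM after vehicle, and in naive mice to 3210.5 to 14700 and 10136 to 21084 CPM. Of these 15 markers, 10 fell in DMM mice and 0 in naive mice, with medians of -1.49 and -0.77. Granulocyte precursor and neutrophil markers summed to 16867 to 29183, 404 to 7761, 8028 to 27452 and 827 to 2222 CPM in the same order of groups, and 10 of 12 rose in DMM mice and 11 of 12 in naive mice. Markers of proliferating cells rose for 12 of 12 and 11 of 12. Myelinating Schwann cell markers summed to 2116 to 6131, 3920.2 to 6594, 3379 to 5369 and 3546 to 6717 CPM, and 5 of 14 fell in DMM mice and 0 of 14 in naive mice. DMM vehicle mouse 64, low for the synthesis genes, had the lowest sum of neuron markers of its group, 7387 CPM, and the highest sum of neutrophil markers, 7761 CPM. It also had the highest sums of myelinating Schwann cell, macrophage and fibroblast markers of its group, 6594, 674 and 7125 CPM. In bulk tissue, fewer cells of a type and less RNA per cell cannot be told apart, and the part of cell composition in the values of the synthesis genes was not tested.

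Of 10 B lineage markers 9 fell in DMM mice and 8 in naive mice, with medians of -3.94 and -3.35, below those of the neuron markers, and Igll1 was at 0 in every naive mouse with AP20187. Of 8 satellite glia markers 1 fell in each comparison, and of 8 fibroblast markers 1 rose in DMM mice and 0 in naive mice. In DMM mice 1 of 8 is about the share of all genes, 12.4% lower and 11.3% higher. Of 8 endothelial markers 4 and 3 rose, and of 12 adipocyte markers 1 and 2 rose, the former near the share of all genes. Adipocyte sums were 76.1 to 126 CPM in DMM mice after AP20187, inside the 48.1 to 143 CPM after vehicle, and 117 to 162 against 57.3 to 102 CPM in naive mice. Of 10 oligodendrocyte markers 1 fell in DMM mice, near the share of all genes, and 2 fell in naive mice, where 2.57% of all genes fell and 8.61% rose. Of 9 erythroid markers 5 fell in DMM mice, where vehicle mouse 64 had the highest sum, 26716 CPM. Skeletal muscle markers summed to 1707 to 2611 CPM in naive with AP20187, above 13.3 to 457 in naive with vehicle, and 3 of 8 rose there. In DMM mice 3 of 8 fell, where vehicle mouse 32 was at 2071 CPM and each other mouse at 275 CPM or less.

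**Figure D4:**
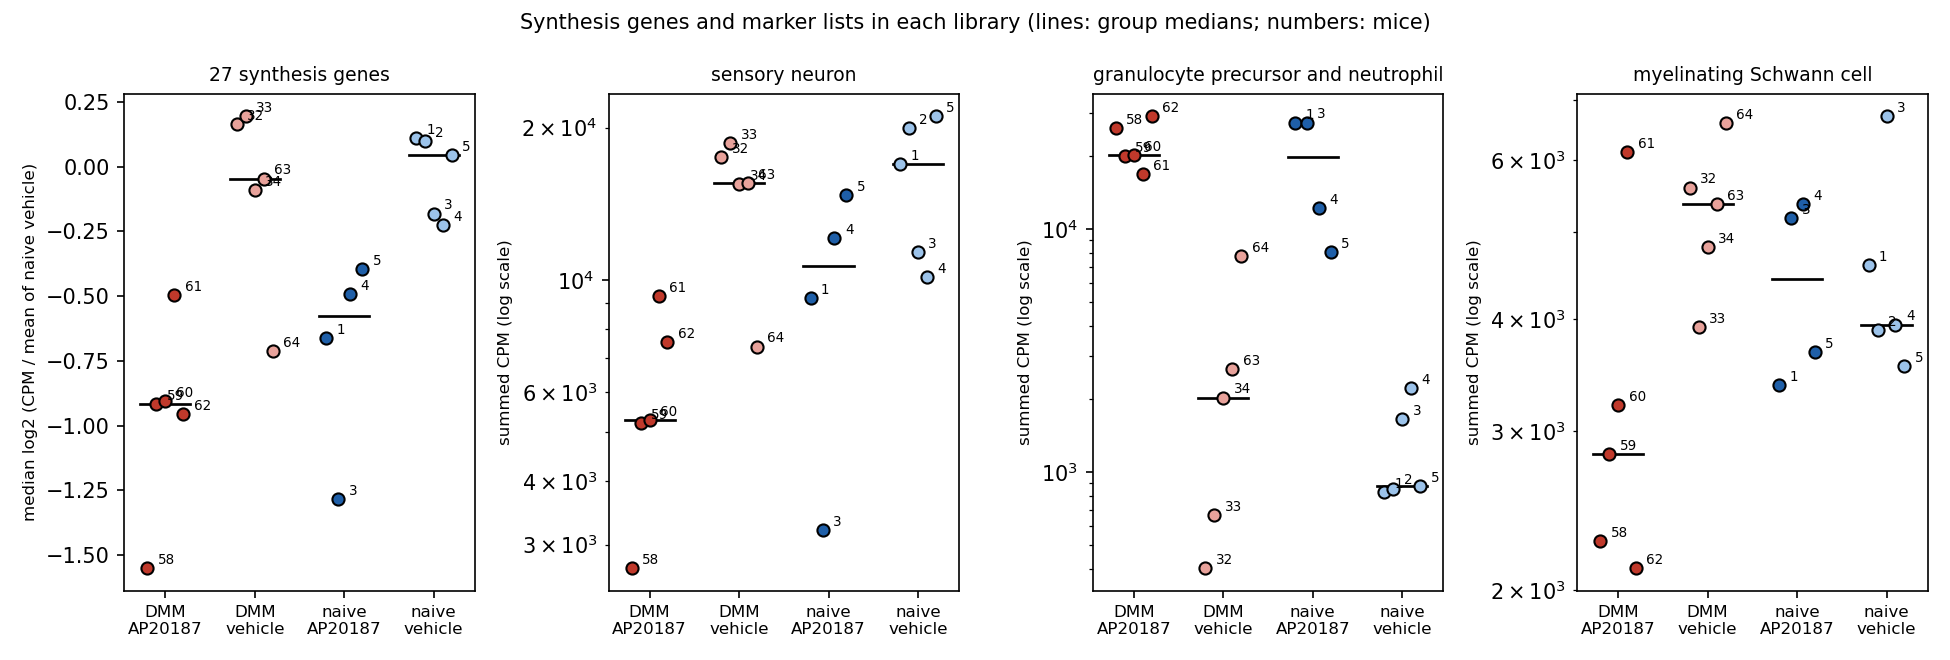
Each library's median log2 ratio of the 27 synthesis genes to the naive vehicle mean (left panel), and summed CPM on log axes of sensory neuron, granulocyte precursor and neutrophil, and myelinating Schwann cell markers; points are mice with their numbers and lines are group medians. Neutrophil sums are 8028 CPM or more in each mouse with AP20187 and 7761 CPM or less in each mouse with vehicle, and mouse 64 is the lowest DMM vehicle point in the left panel and in the neuron panel.

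Counting could affect a few of these genes. By the positions in the files, 12 of the 27 overlap another gene, and for 4 of them (Fdft1 with Ctsb, Cyp51 with Akap9, Tm7sf2 with Vps51, Srebf1 with Rai1) the other gene was above 10% of their own CPM. The overlap was 9 bases for Tm7sf2, 109 for Srebf1, 166 for Cyp51 and 774 for Fdft1. The libraries were stranded, but whether counting used the strand was not given.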

How the data were processed

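Per the labels, stranded poly(A) libraries (TruSeq) were made from pooled ganglia of each mouse. Per the submitters' processing notes, cutadapt, HISAT2, StringTie and build GRCm39 were used, and the versions are not given in the sources used here. Raw counts of each gene, as whole numbers, were deposited by the authors (36682 genes, with equal counts in a matrix of 56691 entries) beside their FPKM. No 2 of the 36 library pairs within a group were identical.

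Counts were tested with edgeR 4.0.16 (R 4.3.3): TMM, filterByExpr with a minimum count of 10, and a quasi-likelihood F test in a group means model of 19 libraries. It left 22778 genes and 15 residual degrees of freedom, and all 27 genes were tested (smallest count 733). Tests were two-sided, with Benjamini-Hochberg adjustment over all tested genes and a threshold of 0.05. CPM uses TMM library sizes. The SE is the log2 fold change over the root of F. On simulated data for AP20187 against vehicle in DMM mice (22778 genes, 200 changed), the test recovered 35% of 2-fold and 85% of 4-fold changes. In the deposited data 23.8% of all genes were called in that comparison. The adjusted threshold is less strict when so many genes are called, so these rates do not give the sensitivity there.

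The p-values measure the spread between mice. Counting error is small at these depths, and the reads carried no molecular identifiers that would mark independent molecules. Alternatives were other scaling, no filter, the compared groups alone, a replicate block, subsets of DMM vehicle mice, leaving out each mouse, DESeq2 1.42.0, and limma 3.58.1 on voom values with sample weights or on log2(FPKM + 1) and log2(FPKM + 0.1) of genes with a mean FPKM of at least 0.1. Values by mouse are given for up to 12 genes with the smallest adjusted p in any contrast and for Srebf1, Srebf2, Scap, Insig1, Scd1, Scd2, Fasn and Acaca. In each further pathway list, up to 4 called genes are named. The genes, lists and rules were chosen with earlier results of these data known.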

Additional observations from a re-analysis of the deposited data

Results flagged for a closer look

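Each of the 27 genes was examined in each of the 4 groups, 108 sets in all, for a mouse far from the rest of its group (Dixon's gap). Chance alone flags about 1 in 20 such sets, and 7 were found. In naive mice with vehicle, mouse 4 was far below the others for 3 genes. Pmvk was at 30.7 CPM there against 46.4 to 49.6 in the other 4 mice, Cyp51 at 92.5 CPM against 119.7 to 129.96, and Tm7sf2 at 38.3 CPM against 51.8 to 56.7. In naive mice with AP20187, Mvk was at 20.1 CPM in mouse 3 against 32.96 to 34.8 in the other 3. In DMM with vehicle, Insig1 was at 61.5 CPM in mouse 64 against 96.9 to 109.7 in the other 4. In DMM with AP20187, mouse 61 was far above the others for 2 fatty acid genes, with Fasn at 157.5 CPM against 76.2 to 97.0 and Scd2 at 1336 CPM against 379.7 to 611.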

How the results depend on the processing

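In DMM mice, the count of 21 genes past the threshold with AP20187 became 16 to 25 under other scaling, filters, tools and a fit of the 2 groups alone (23.8% of all genes called; 16 with 19.8% in the fit of the 2 groups, 20 with 11.3% without a filter, and 25 with 46.9%, 24 lower and 1 higher, with limma voom and sample weights), 13 to 22 with 1 mouse left out, and 1 with only vehicle mice 63 and 64 (4.73% of all genes), where Scap was at 0.10, Acaca at 0.36 and Ebp at -0.0471 (log2), each of the other sign than with all mice. With only mice 32 to 34, Srebf1 was at 0.0019 in place of -0.10. In naive mice, the 6 genes became 2 with the replicate block, Mvd and Tm7sf2. There 5.31% of all genes were called in either direction, near 2 of 27. Other fits gave 12 with DESeq2 (19.1%), 16 with limma voom and sample weights (19.9%), 19 with log2(FPKM + 1) (19.3%) and 19 with log2(FPKM + 0.1) (19.7%). Leaving out 1 mouse gave 1 to 7 (4.24% to 14.7% of all genes). The shared numbers 1, 3, 4 and 5 of the naive groups do not mark pairs in the labels, and deviations of same-numbered mice correlated at 0.02, 0.30, -0.08 and 0.18, each mouse best with its own number only for number 3. Ebp, at 0.01 in naive mice, was at -0.072 without TMM, -0.04 with limma voom, -0.17 with log2(FPKM + 1), -0.18 with log2(FPKM + 0.1), and from -0.0895 to 0.0818 with 1 mouse left out, below 0 without naive AP20187 mouse 1 or 3 or naive vehicle mouse 4 or 5. DMM against naive with vehicle gave 0 except 1 (Acaca) with mice 63 and 64 alone (2.21% of all genes). Scd2 was there at 0.15 with mice 32 to 34 alone, -0.265 to 0.0466 with 1 mouse left out, above 0 without DMM vehicle mouse 64, and 0.0089 with limma voom, in place of -0.12. With AP20187 it gave 0 except 1 with DESeq2 (4.87% of all genes), 7 with limma voom (10.8%), 1 with log2(FPKM + 1) (5.78%) and 1 with log2(FPKM + 0.1) (4.71%). The interaction gave 0 of the 27 in all fits run. In DMM mice, 12 genes passed in all 10 fits that left out 1 mouse. Over the 27 genes in both AP20187 comparisons, the pathway genes named and the genes named in the other comparisons, 1305 values under the alternatives kept direction and side of the threshold, 152 lost the call, 64 gained one and 15 changed sign. The cause of these differences was not tested. The smallest count of any of the 27 genes in a library was 733.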

Other observations

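The ratio of the desaturases Scd2 and Scd1 was compared between groups after the values were seen. The ratio of Scd2 to Scd1 in FPKM was 1.28 ± 0.0787 (SD, n = 4) in naive mice with AP20187 and 1.74 ± 0.118 (n = 5) in naive mice with vehicle. The ranges, 1.23 to 1.39 and 1.65 to 1.95, did not overlap (mean log2 difference -0.45, two-sided exact permutation p = 0.0159, the smallest the design allows, adjusted 0.0635 over 4 comparisons). In DMM mice it was 1.54 ± 0.381 with AP20187 and 1.82 ± 0.0820 with vehicle (n = 5 each), a log2 difference of -0.28 (exact permutation p = 0.143, adjusted 0.286). None of the 4 comparisons passed 0.05 after adjustment.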
